A study of Mus musculus with 6 samples.

Results

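The metallothioneins Mt1, Mt2 and Mt3 were taken from the gene count table by symbol, and they are 3 of its 54532 genes. They were chosen by the log2 fold change of Mt3, among the largest falls with ruxolitinib in an earlier pass over these data, so their own values below are a description with no test. All 3 passed the filter on low counts. RNA came from marrow cells that CD8 microbeads had retained, taken from female mice of the hybrid strain CByB6F1, 2 to 5 months old. All of these mice had immune bone marrow failure, a disease model in which haematopoietic cells are destroyed by T cells. The ruxolitinib group (pools 1, 2 and 3) was given this JAK1 and JAK2 inhibitor, and the control group (pools 4, 5 and 6) had the same disease and no ruxolitinib. Each pool joined cells of 2 to 3 mice of 1 group. Nothing in the sources used here states the dose or the duration. The libraries held 13829808 to 17708196 counted reads.

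Metallothioneins are small proteins, rich in cysteine, whose thiol groups hold zinc and copper and can react with oxidants. Mt1 and Mt2 are made in most tissues and are classically induced together by zinc through the metal sensor MTF1, by glucocorticoids and, through STAT3, by cytokines of the interleukin 6 family. Mt3 is best known from neurons and Mt4 from stratified epithelia. In T cells metallothioneins buffer the free zinc that affects signalling.

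The 4 genes lie in a row on the plus strand of chromosome 8 within 43.131 kb (mm10, positions as deposited). Mt4 lies at chr8:94137197-94139031, Mt3 at chr8:94152607-94154146, Mt2 at chr8:94172664-94173568 and Mt1 at chr8:94179082-94180327. Their identifiers are ENSMUSG00000031757, ENSMUSG00000031760, ENSMUSG00000031762 and ENSMUSG00000031765 in that order. The first annotated transcript of each has 3 exons (GENCODE M21). Mt4 had 0 counts in all 6 libraries, which allows up to 0.166 to 0.228 CPM per library (3 counts, covering counting error only). CPM is a gene's count scaled to the library's total times its TMM factor (edgeR).

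The coding sequences show what the members share. They are printed 5′ to 3′ from the first annotated transcripts, with the cysteine codons in capitals.
Mt1: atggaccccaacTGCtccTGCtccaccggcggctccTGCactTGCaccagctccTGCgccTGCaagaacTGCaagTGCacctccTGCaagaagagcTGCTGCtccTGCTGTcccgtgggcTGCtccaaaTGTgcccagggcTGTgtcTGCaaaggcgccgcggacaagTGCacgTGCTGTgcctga
Mt2: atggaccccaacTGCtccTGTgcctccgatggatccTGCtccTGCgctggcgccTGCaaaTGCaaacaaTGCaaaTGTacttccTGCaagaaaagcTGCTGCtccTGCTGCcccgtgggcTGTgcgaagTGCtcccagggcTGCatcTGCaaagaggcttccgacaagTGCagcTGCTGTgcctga
Mt3: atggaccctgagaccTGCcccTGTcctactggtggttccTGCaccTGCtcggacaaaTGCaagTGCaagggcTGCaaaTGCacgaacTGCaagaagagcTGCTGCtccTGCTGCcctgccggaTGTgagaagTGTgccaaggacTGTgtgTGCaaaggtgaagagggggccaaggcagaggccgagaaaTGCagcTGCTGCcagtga
Each holds 20 cysteine codons, among 61 codons in Mt1 and Mt2 and 68 in Mt3, and all 20 fell at the same aligned positions in each pair of these genes. Mt1 and Mt2 were identical at 79.6% of aligned coding bases, Mt1 and Mt3 at 73.7%, and Mt2 and Mt3 at 75.3%. The alignment of Mt3 with either of the others left 21 bases of Mt3 unpaired. The longest run of identical bases between whole first transcripts was 20 for Mt1 with Mt2, 27 for Mt1 with Mt3 and 20 for Mt2 with Mt3. No longer stretch is shared, so these are related genes and not near-identical copies.

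The promoters are shown as background, and no link from a motif to a level or to the comparison was tested. Each window runs from 250 bases before to 50 bases after the RefSeq start on the plus strand (GRCm38.p6), and capitals mark the metal response element core, searched as TGCACNC or TGCGCNC on both strands.
Mt1, chr8:94178839-94179138: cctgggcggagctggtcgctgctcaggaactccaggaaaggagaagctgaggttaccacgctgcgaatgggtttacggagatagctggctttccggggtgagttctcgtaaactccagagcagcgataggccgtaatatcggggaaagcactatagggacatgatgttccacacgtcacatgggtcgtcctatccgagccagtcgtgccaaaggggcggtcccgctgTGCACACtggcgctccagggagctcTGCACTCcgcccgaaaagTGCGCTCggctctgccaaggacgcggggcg
Mt2, chr8:94172368-94172667: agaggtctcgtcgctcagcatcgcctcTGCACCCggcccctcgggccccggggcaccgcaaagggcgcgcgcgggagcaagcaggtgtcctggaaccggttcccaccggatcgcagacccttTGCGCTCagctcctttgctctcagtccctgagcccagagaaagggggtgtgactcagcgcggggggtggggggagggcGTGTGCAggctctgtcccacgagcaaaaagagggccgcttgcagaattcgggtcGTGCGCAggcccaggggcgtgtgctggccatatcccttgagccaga
Mt3, chr8:94152357-94152656: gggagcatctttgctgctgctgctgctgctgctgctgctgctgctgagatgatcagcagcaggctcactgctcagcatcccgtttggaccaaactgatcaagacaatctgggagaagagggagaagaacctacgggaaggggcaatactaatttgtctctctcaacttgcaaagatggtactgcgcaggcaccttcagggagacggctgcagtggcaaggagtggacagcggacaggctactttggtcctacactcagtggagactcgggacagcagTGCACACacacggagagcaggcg
The core occurred 3 times in the Mt1 window, 4 times in that of Mt2 and 1 time in that of Mt3. Counting the RefSeq start as base 1, the leftmost bases of the matches in Mt1 were at -23, 3 and 21. In Mt2 they were at -223, -128, -50 and 5, and in Mt3 the match was at 28. The RefSeq start is not always the deposited gene start. The Mt2 window ends at 94172667 and the deposited gene starts at 94172664, so almost all of it, with its 4 matches, lies before the gene. Positions and counts hold for these windows only, and the start used in these cells was not tested. Of 32817 promoter windows of that length, 25.7% held at least 1 match, 1.97% at least 3 and 0.518% at least 4. The glucocorticoid response element, searched as GNACA and TGTNC with 3 bases between them, was matched 1 time in Mt1, at -94, and not in the windows of Mt2 or Mt3, and 0.475% of all windows held it. The antioxidant response element core TGACNNNGC was matched 1 time in Mt2 only, against 12.4% of all windows. No STAT site (TTC and GAA with 3 or 4 bases between them, in 14.6% of windows) and no interferon-stimulated response element core (GAAA and GAAA with 2 bases between them, in 3.43%) was matched in the 3 windows. The windows of Mt1 and Mt2 held 24 CpG dinucleotides each and that of Mt3 held 8, beside a median of 7 over all windows. A match is a run of letters and was not tested as a binding site.

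Mt3 was counted in every library, and its groups were far apart. It had 545, 570 and 990 reads in control pools 4, 5 and 6, which is 30.2, 37.3 and 61.7 CPM. In ruxolitinib pools 1, 2 and 3 it had 2, 16 and 32 reads, which is 0.146, 1.22 and 2.02 CPM. The groups did not overlap, and the lowest control pool was 14.9-fold above the highest ruxolitinib pool. The means were 43.0 ± 16.5 CPM in controls and 1.13 ± 0.941 CPM with ruxolitinib (SD, n = 3 each), and the fitted log2 fold change of ruxolitinib over control was -5.22 ± 0.60 (SE). Counting error alone gave exact Poisson 95% intervals of 0.0177 to 0.529 CPM in pool 1, 0.695 to 1.98 CPM in pool 2 and 1.38 to 2.86 CPM in pool 3, so pool 1 lay below the other treated pools beyond counting error. Without ruxolitinib pool 3 the log2 fold change was -5.98. Mt3 was the 1 member of 3 whose groups did not overlap, and these values chose it. Of all 13480 genes tested, 30.3% were likewise lower in every ruxolitinib pool than in every control pool, 35.7% were higher in every one, and 55.2% passed the edgeR test in either direction.

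Mt1 was the most abundant member and its groups overlapped. It had 1333, 1680 and 2933 reads in control pools 4, 5 and 6 (73.8, 110 and 183 CPM) and 1916, 2075 and 1276 reads in ruxolitinib pools 1, 2 and 3 (140, 158 and 80.7 CPM). Control pool 6 was the highest library and control pool 4 the lowest, with all ruxolitinib pools between them. The means were 122 ± 55.5 CPM and 126 ± 40.4 CPM (SD, n = 3 each), with a log2 fold change of 0.05 ± 0.35 that took values from -0.22 to 0.44 when single pools were left out. The spread within each group was larger than the difference between the groups.

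Mt2 was counted at the edge of detection. It had 21, 21 and 42 reads in control pools 4, 5 and 6 (1.16, 1.37 and 2.62 CPM) and 29, 10 and 14 reads in ruxolitinib pools 1, 2 and 3 (2.12, 0.76 and 0.885 CPM). The groups overlapped, and the log2 fold change was -0.45 ± 0.56, taking values from -1.03 without ruxolitinib pool 1 to -0.03 without control pool 6. Its low count is uncertain for a structural reason. The antisense gene Gm45774 (chr8:94170748-94173412, minus strand) covers 432 of the 588 exon bases of Mt2, leaving 156 free, and Mt1 and Mt3 share no exon base with another annotated gene. Gm45774 had 3 counts in all libraries together. Whether reads under both genes were given to either is not known, because no source used here names the counting program or its strand setting.

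**Figure D1:**
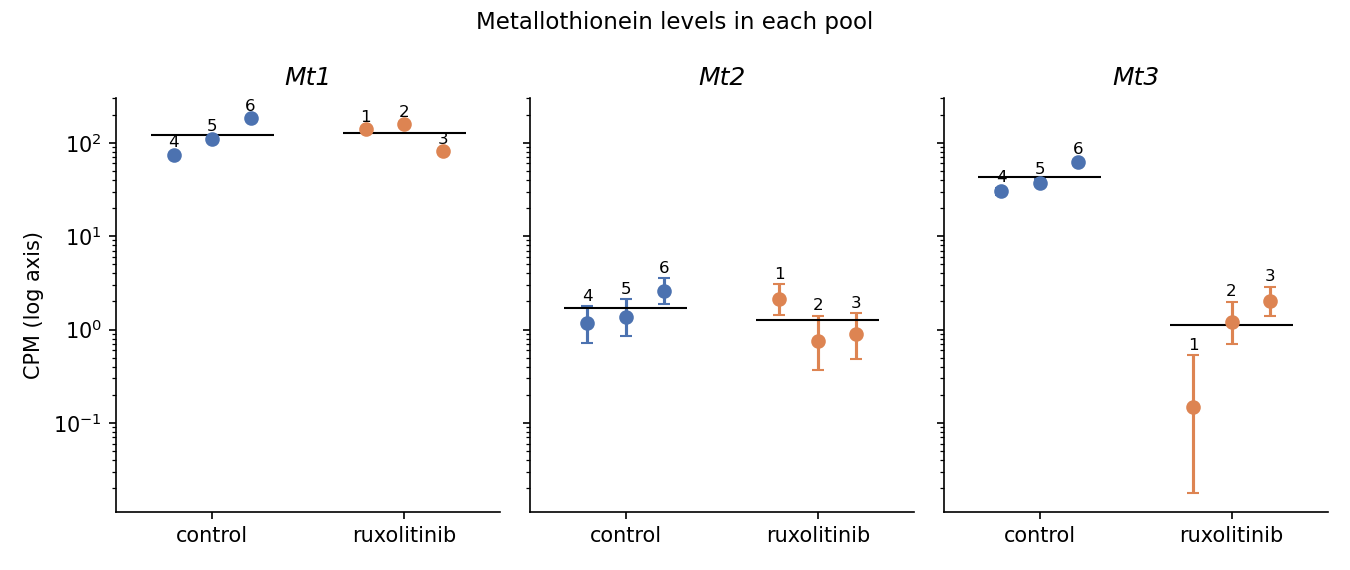
Level of each metallothionein in each pool, in CPM on a log axis. Points are single pools with their pool number, bars are exact Poisson 95% intervals for counting error and black lines are group means over 3 pools. The Mt3 points of the ruxolitinib pools (0.146 to 2.02 CPM) lie below all its control points (30.2 to 61.7 CPM), while the Mt1 and Mt2 points overlap between groups.

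Levels can be set side by side between genes only per length. Per kilobase of deposited gene length, controls had 98.0 ± 44.5 CPM of Mt1, 40.4 ± 15.5 CPM of Mt3 and 2.92 ± 1.34 CPM of Mt2 (SD, n = 3). The order Mt1, Mt3, Mt2 held in each control pool, where Mt1 was 2.09 to 2.53 times Mt3 and Mt3 was 13.0 to 15.0 times Mt2. With ruxolitinib the values were 101 ± 32.4 CPM of Mt1, 2.14 ± 1.28 CPM of Mt2 and 1.06 ± 0.883 CPM of Mt3 per kilobase, and the last 2 did not differ beyond their spread, with Mt3 at 0.038, 0.883 and 1.26 times Mt2 in pools 1, 2 and 3. The deposited length of Mt1 is 1246 bases, its whole genomic span, since annotated transcripts between them cover its introns. With the spliced length of the first transcripts (549 bases for Mt1, 511 for Mt2, 536 for Mt3), Mt1 reached 222 ± 101, Mt3 80.3 ± 30.8 and Mt2 3.36 ± 1.54 CPM per kilobase in controls, in the same order. Reads over the 156 free exon bases of Mt2 were not counted apart. If all reads of Mt2 had fallen there, its level would be 11.01 ± 5.03 CPM per kilobase in controls and 8.05 ± 4.83 CPM with ruxolitinib.

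The make-up of the metallothionein counts was steady within controls. Mt3 took 28.7%, 25.1% and 25.0% of the summed counts of the 3 genes in control pools 4, 5 and 6, and 0.103%, 0.762% and 2.42% in ruxolitinib pools 1, 2 and 3. The summed counts themselves were 1899, 2271 and 3965 in control pools and 1947, 2101 and 1322 in ruxolitinib pools. Within controls the summed level ran from 105 to 247 CPM, while the reads of Mt1 per read of Mt3 ran only from 2.45 to 2.96. Mt2 took from 0.925% to 1.11% in controls and from 0.476% to 1.49% with ruxolitinib, where the reads are fewest.

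**Figure D2:**
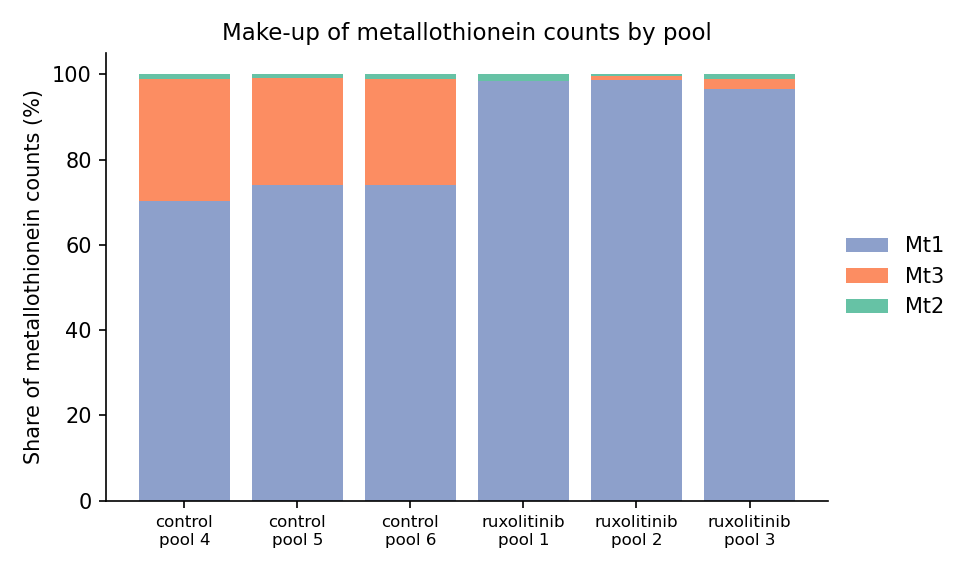
Share of the summed Mt1, Mt2 and Mt3 counts taken by each gene in each pool, in percent of counts, with 1 bar per pool. Mt3 takes 25.0% to 28.7% in the control bars and 0.103% to 2.42% in the ruxolitinib bars, and Mt1 takes most of each.

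The libraries differed in cell content, and these values stand beside every metallothionein value above. All 17 genes of a CD8 T cell identity list fell with ruxolitinib, against 25.3% of all genes tested. Their geometric mean level stood at 552, 544 and 425 CPM in control pools 4, 5 and 6, above the 92.9, 112 and 256 CPM of ruxolitinib pools 1, 2 and 3. Its most abundant members were the T cell receptor gene Trbc2 (-2.55 ± 0.40) and the surface gene Thy1 (-1.96 ± 0.39), and Cd8a itself averaged 286 ± 173 CPM with ruxolitinib and 944 ± 118 CPM in controls. Of the 17, 10 passed without ruxolitinib pool 1. In such bulk samples fewer cells of a type and less RNA per cell cannot be told apart.

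Within the ruxolitinib group the order of pools by Mt3 was that of the CD8 identity genes, lowest in pool 1 and highest in pool 3, and in controls pool 6 had the most Mt3 and the lowest identity level. As a share of the identity mean, Mt3 was 0.157%, 1.09% and 0.789% in ruxolitinib pools 1, 2 and 3. In control pools 4, 5 and 6 it was 5.47%, 6.85% and 14.5%. These shares did not overlap, but Mt3 was chosen for its fall between these groups, so they are a description with no test. Mt1 was 151%, 141% and 31.4% in ruxolitinib pools 1, 2 and 3 and 13.4%, 20.2% and 43.0% in control pools 4, 5 and 6, with pool 3 inside the control range. With libraries scaled to the identity genes, the log2 fold change of Mt3 was -3.69, that of Mt1 2.08 and that of Mt2 1.57, and the median of all genes tested moved from 0.03 to 2.00. A change of scaling shifts most genes by a similar amount, so places relative to that median could hardly change and are no test. Mt1 lay close to it under both scalings. Mt2 lay below it by less than its SE (0.56 in the main fit, 0.80 when scaled to the identity genes). Mt3, chosen for its fall, lay far below it.

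**Figure D3:**
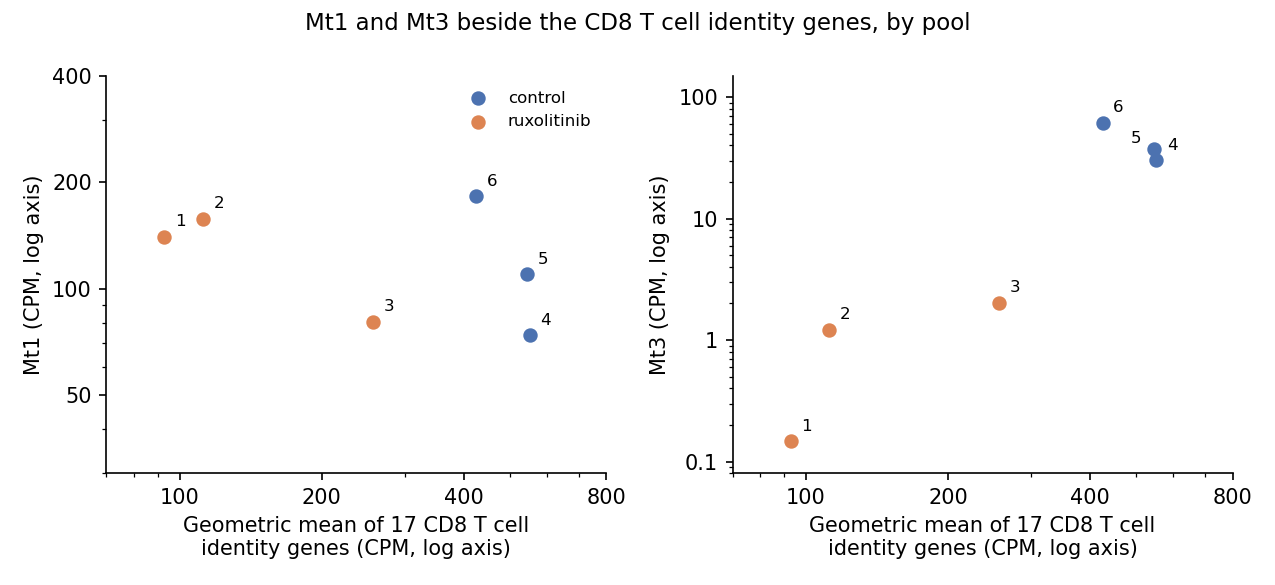
Level of Mt1 (left) and Mt3 (right) in CPM against the geometric mean of the 17 CD8 T cell identity genes in CPM, both on log axes, with 1 point per pool labelled by its number. The 3 ruxolitinib pools lie to the left of the controls, with Mt3 at 2.02 CPM or less, while the Mt1 levels of the groups overlap.

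Most genes of 5 lists for other marrow cells were higher with ruxolitinib, against 29.9% of all genes tested. The dendritic cell and natural killer cell lists were split. All 13 measured erythroid genes rose (Ahsp was not matched), with a summed level of 1930 to 2766 CPM in controls and 126655 to 247698 CPM with ruxolitinib, led by Hba-a1 and Hbb-bs. All 16 monocyte and macrophage genes rose, from 1069 to 1433 CPM summed in controls to 7094 to 11401 CPM, with Lyz2 and C1qa most abundant. Of 13 neutrophil genes 11 rose (1587 to 6169 CPM in controls, 9251 to 21807 CPM with ruxolitinib), with Ngp called and S100a8 not (1.23 ± 0.52). Of 11 B cell genes tested 10 rose (207 to 268 CPM, 1061 to 1650 CPM), led by Ighm and Igkc, and Ms4a1, Pax5 and Igll1 had 0 counts in all control pools. Of 11 stromal and endothelial genes 10 rose (43.4 to 45.1 CPM, 159 to 219 CPM), with Cxcl12 called and Pecam1 not (-0.33 ± 0.20), and Col3a1 was at 0 in controls. Of 11 dendritic cell genes 6 rose, with Flt3 and Siglech at 0 in controls, and 3 fell (Bst2, Xcr1 and Batf3), or 1 without ruxolitinib pool 1. Their summed level, mostly Bst2 in controls, was 258 to 281 CPM there and 114 to 138 CPM with ruxolitinib, where Bst2 and Itgax were about equal. Of 8 genes on the natural killer cell list 4 were tested. Tyrobp and Fcer1g rose, Klre1 fell (-3.42 ± 0.50) and Eomes was not called, and without ruxolitinib pool 3 there were 2 falls. Which cells the rises of Tyrobp and Fcer1g came from was not tested. The part of any of these cells in the metallothionein values was not tested.

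The tested neighbours on the chromosome had smaller differences than Mt3. Since Mt3 was chosen for its large fall, this contrast in size is a description, and a shared cause was not tested. Within 250 kb of the cluster 20 further genes are listed, 14 had a count and 8 were tested, with a median log2 fold change of -0.11. Of these 8, 1 rose and 3 fell, a share called near the 55.2% of all genes tested. Nudt21, an mRNA cleavage factor gene, fell from 157 ± 15.1 CPM to 76.4 ± 15.1 CPM (-1.04 ± 0.21, edgeR adjusted p = 0.00263). The lincRNA gene 9330175E14Rik fell (-1.77 ± 0.54) although its groups overlapped. The processed pseudogene Rpl10-ps5, whose reads could belong to its parent gene, also fell (-0.78 ± 0.28), and its groups did not overlap. The ciliary gene Bbs2 rose from a low level (1.17 ± 0.36, 1.66 ± 0.052 to 3.75 ± 0.562 CPM). The nuclear pore gene Nup93, the first tested protein-coding gene beyond the Mt1 end of the cluster, had -0.30 ± 0.34 and was not called. Ogfod1 (0.08 ± 0.25) and Herpud1 (0.24 ± 0.18) were not called either. Of the neighbours, 1 rise became 0 without ruxolitinib pool 1, control pool 4 or control pool 5, and the 3 falls became 1 without ruxolitinib pool 1, ruxolitinib pool 2 or control pool 5.

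**Figure D4:**
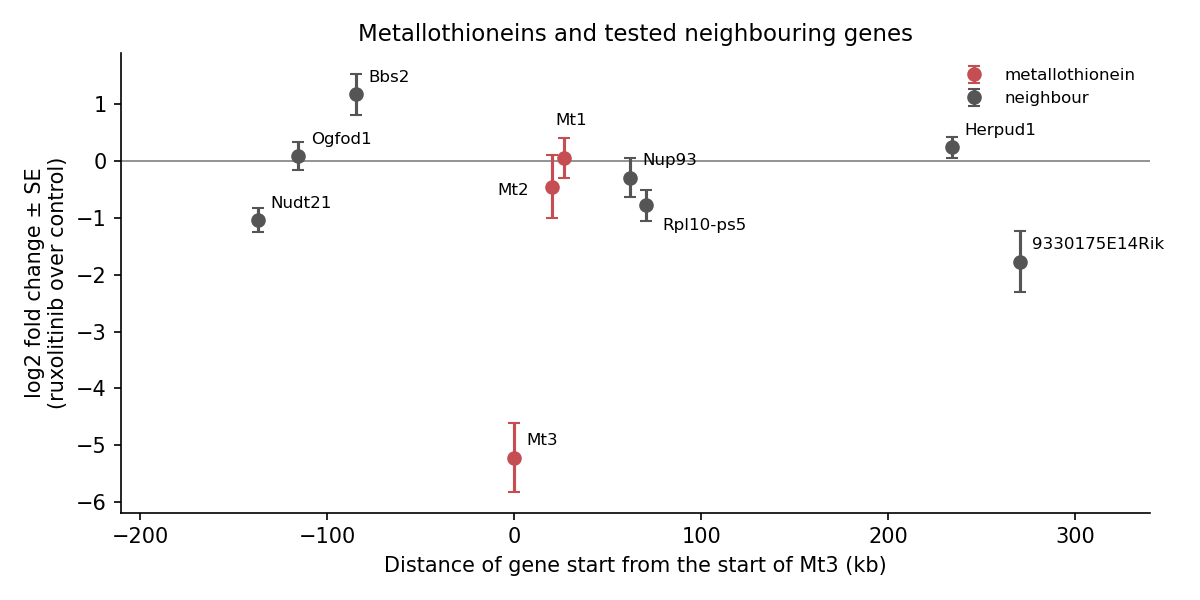
Log2 fold change of ruxolitinib over control (± SE) for the metallothioneins and 7 of the 8 tested neighbours, against the distance in kb from the Mt3 start to each gene's lowest position. Mt3, which was chosen for its large fall, lies at -5.22, and all other points lie between -1.77 and 1.17.

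Of 21 tested genes for zinc transporters and the metal sensor, 5 rose and 4 fell, beside 29.9% higher and 25.3% lower among all genes tested, so neither count stood above the background. Their median log2 fold change was 0.05, beside 0.03 for all genes. The importer gene Slc39a8 rose from 0.723 ± 0.287 CPM to 15.95 ± 3.68 CPM (4.46 ± 0.38, edgeR adjusted p = 2.92e-05). Slc30a10, an exporter gene best known for manganese, had 0 counts in all control pools and 7.21 ± 2.64 CPM with ruxolitinib. That is at least 119-fold higher against a floor of 3 counts over the control group. The plasma membrane zinc exporter gene Slc30a1, a classical MTF1 target like Mt1, rose (0.88 ± 0.30), and so did Slc30a9 (0.88 ± 0.30) and the sensor gene Mtf1 (0.59 ± 0.22, edgeR adjusted p = 0.0472, not called in 7 of 14 alternatives). The importer genes Slc39a6 (-1.28 ± 0.24), Slc39a3 (-0.61 ± 0.20), Slc39a4 (-0.86 ± 0.32) and Slc39a5 (-1.65 ± 0.62) fell. Of the same 14 alternatives, 7 lost the call of Slc39a5, 6 that of Slc39a4, 4 each those of Slc39a3, Slc30a1 and Slc30a9, and 1 that of Slc39a6. The most abundant genes that were not called were the importer gene Slc39a1 (-0.20 ± 0.22) and the exporter gene Slc30a5 (0.05 ± 0.18). The count of rises was 2 without ruxolitinib pool 1, ruxolitinib pool 2, control pool 4 or control pool 5, and that of falls 1 without ruxolitinib pool 1, ruxolitinib pool 2 or control pool 5. Slc30a9, Mtf1, Slc39a4, Slc39a5, and below Commd1, Ccs, Fkbp5 and Il6st, lie outside the naming rule and were added with their values in view. Slc30a2, Slc30a3, Slc30a8 and Slc39a2 were not tested.

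Of 12 tested copper handling genes, 6 rose and 3 fell, with a median of 1.01. Among all genes tested 29.9% rose and 25.3% fell, so the falls were as frequent as in the background. The copper pump gene Atp7b rose from 0.0805 ± 0.0705 CPM to 7.91 ± 3.59 CPM, and its relative Atp7a had 0 counts in controls and 2.88 ± 1.44 CPM with ruxolitinib (at least 47.4-fold higher, same floor). The metalloreductase genes Steap3 (3.10 ± 0.29), which serves iron uptake in red cell precursors, and Steap4 (5.77 ± 0.79) rose. The mitochondrial copper chaperone gene Sco1 (-1.32 ± 0.26), Commd1 (-1.34 ± 0.31) and the superoxide dismutase chaperone gene Ccs (-0.75 ± 0.27) fell. Of the 14 alternatives, 5 lost the call of Ccs and 1 each those of Sco1 and Commd1. Atox1, the most abundant of the list, had -0.59 ± 0.28 and Cox11 1.32 ± 0.64, and neither was called.

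Antioxidant genes of the NRF2 programme and of glutathione synthesis rose nearly throughout, with 12 of 14 higher against 29.9% of all genes tested, none lower against 25.3%, and a median of 2.01. The haem oxygenase gene Hmox1 (4.42 ± 0.35), the quinone reductase gene Nqo1 (4.09 ± 0.39), the malic enzyme gene Me1 (4.76 ± 0.50) and the genes of both subunits of glutamate-cysteine ligase, Gclm (3.38 ± 0.29) and Gclc (2.07 ± 0.25), had the smallest p. The NRF2 inhibitor gene Keap1 (-0.10 ± 0.24) and the glutathione synthetase gene Gss (-0.70 ± 0.29) were not called. Erythroid and macrophage genes, which rose in the same libraries, were given above, and their part was not tested.

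Of 11 tested genes of the glucocorticoid response, 5 rose (29.9% of all genes tested) and 1 fell (25.3% of all), with a median of 0.46. The receptor gene Nr3c1 rose from 26.6 ± 2.48 CPM to 68.6 ± 12.1 CPM (1.37 ± 0.21), with Dusp1 (1.05 ± 0.20), the kinase gene Sgk1 (1.46 ± 0.20), Klf9 (3.58 ± 0.72) and Cdkn1c (2.33 ± 0.48). Fkbp5, a chaperone gene that the receptor induces, fell (-0.82 ± 0.19), and Tsc22d3 (-0.29 ± 0.18) and Ddit4 (-0.74 ± 0.57) were not called. The count of falls was 2 without ruxolitinib pool 3 and 3 without control pool 6.

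Of 12 tested genes of the interleukin 6 family and STAT3, 5 rose and 1 fell, with a median of 0.57, where the shares of all genes tested were 29.9% and 25.3%. The receptor genes Il6ra (3.23 ± 0.36), Il6st (0.93 ± 0.26) and Lifr (2.48 ± 0.58), the cytokine gene Osm (2.23 ± 0.32) and the drug target gene Jak2 (0.91 ± 0.18) rose. Stat3 fell from 369 ± 8.68 CPM to 180 ± 45.5 CPM (-1.04 ± 0.24, edgeR adjusted p = 0.00461). Jak1 (0.25 ± 0.21) and Pim1 (0.38 ± 0.21) were not called. Without control pool 6 the count of falls was 2. Scaling to the CD8 identity genes turned these splits to rises alone, with 16 and 0 for zinc, 8 and 0 for copper, 10 and 0 for the glucocorticoid list and 10 and 0 for the interleukin 6 list, as 9548 genes were then higher and 65 lower in all.

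**Figure D5:**
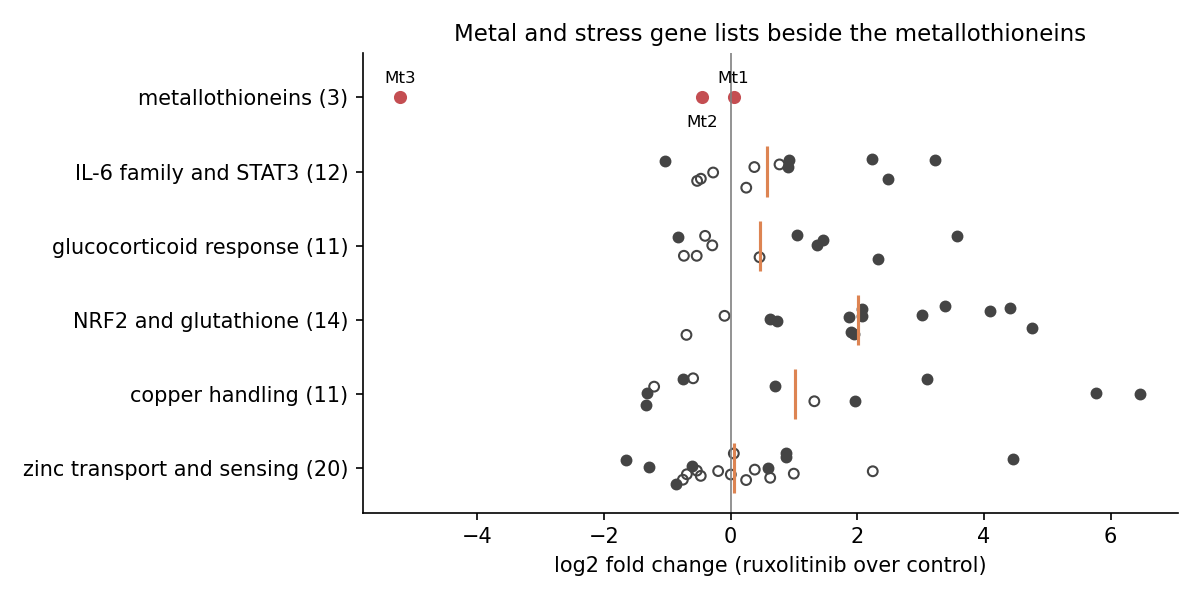
Log2 fold change of ruxolitinib over control for the metallothioneins and for each tested gene of 5 lists, with the number plotted in brackets. Filled points passed the edgeR threshold and open points did not, metallothioneins (red) carry no test, orange lines are list medians over all tested members, and Slc30a10 and Atp7a, at 0 in controls, are not drawn. Mt3, which was chosen for its large fall, lies at -5.22, below every gene of the 5 lists.

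The genes whose pattern over the 6 pools was most like that of a member were found by the root mean square difference of log2 CPM centred on each gene's mean, among the 10079 tested genes that reached 5 CPM in either group's mean. For Mt3 the nearest was the senescence-linked gene Cdkn2a, with a difference of 0.37 log2 units. Control pools 4, 5 and 6 held 68.0, 80.4 and 126 CPM of Cdkn2a and ruxolitinib pools 1, 2 and 3 held 1.02, 2.74 and 6.32 CPM. The order of pools was that of Mt3, a likeness that the search itself selected for. Next came the granzyme gene Gzma (0.59), the interferon-inducible gene Ifi27l2a (0.70), Ly6a (0.75), which encodes Sca-1, and the surface protein gene Cd7 (0.76). For Mt1 they were the cyclin gene Ccnl2 (0.16), the retinol dehydrogenase gene Rdh10 (0.17), Arl6ip6 (0.18) and Guca1a (0.20). For Mt2, with its few reads, they were Zfp729a (0.27), Mpzl3 (0.28), Fchsd2 (0.28), Zbtb6 (0.29) and Dock11 (0.29). None of the genes named for one member was named for another.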

How the data were processed

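The authors deposited raw read counts per gene for 6 libraries, with gene positions and lengths. Per the submitters' processing notes, reads were aligned with HISAT2 2.0.5 to mm10, and the labels' protocols name an NEBNext Ultra II library kit. No source used here gives the counting program, strand setting or annotation. All 4 metallothionein genes have the same coordinates in GENCODE M21.

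Counts were fitted with edgeR 4.0.16 in R 4.3.3 (filterByExpr, TMM factors, robust glmQLFit, glmQLFTest, group as the only term, Benjamini-Hochberg adjusted p under 0.05 over 13480 genes). SE is the fold change divided by the square root of F. DESeq2 1.42.0, limma-voom 3.58.1, other scalings and filters, and leaving out each pool were alternatives, and the fit was tested on simulated counts. The members and lists were chosen with earlier results of these data known. In each list, up to 5 called genes with the smallest p and the 2 most abundant uncalled were named, and in marker lists the 2 most abundant. The tested neighbours were named, and the 5 most alike genes of established symbol. A few genes under these rules are not reported here. Promoters are from RefSeq (GRCm38.p6), matched for 3 of 3 members. Proteins are not shown.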

Additional observations from a re-analysis of the deposited data

How the results depend on the processing

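Over 18 values and counts, 126 of 144 results under other scalings, filters and tests kept within the limit set for a shift (1.5 times for a count, the spread within groups for a metallothionein), and 91 of 108 did with single pools left out. Scaling to the CD8 identity genes moved most of the others. It gave 9548 genes higher and 65 lower, log2 fold changes of 2.08 for Mt1, 1.57 for Mt2 and -3.69 for Mt3, and higher and lower counts of 16 and 0 for zinc, 10 and 0 for the glucocorticoid list, 10 and 0 for the interleukin 6 list, 5 and 0 for the neighbours and 0 lower for copper. With no filter the NRF2 list had 1 lower and the neighbours 0 higher. The glucocorticoid list had 2 lower with DESeq2 and 2 with limma-voom. The cause of these shifts was not tested. Removing haemoglobin genes moved no count or metallothionein value past the limit.

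With single pools left out, genes higher ranged from 3444 to 4482 and lower from 2306 to 3831. Mt1 ranged from -0.22 to 0.44, Mt2 from -1.03 to -0.03, Mt3 from -5.98 to -4.68 and the log2 difference of the Mt1 to Mt2 ratio from 0.05 to 1.00. Counts of genes higher ranged from 2 to 7 for zinc, 5 to 7 for copper, 10 to 12 for NRF2, 5 to 5 for glucocorticoid, 4 to 6 for interleukin 6 and 0 to 1 for neighbours, and of genes lower from 1 to 4, 2 to 4, 0 to 1, 1 to 3, 1 to 2 and 1 to 4 in that order. No paired analysis was possible because the groups share no replicate numbers. Gene lengths other than the deposited one were chosen after the data were seen. Mt2 in every pool and Mt3 in ruxolitinib pools rest on 2 to 42 reads, so depth limits differences among those pools.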
